A study of Rattus norvegicus with 9 samples.

Results

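Neurotrophic factors are secreted proteins that keep motor and sensory neurons alive and maintain their contact with muscle. Here 10 of their genes, for ligands and receptors, were followed in the posterior cricoarytenoid, the laryngeal muscle that opens the vocal folds, in rats aged 6, 18 and 30 months. The members were every probe set whose single platform gene symbol was *Gdnf*, *Gfra1*, *Bdnf*, *Ntf3*, *Ngfr*, *Ntrk2*, *Ntrk3*, *Cntf*, *Nrg1* or *Nrn1*, with weak signals kept. All 10 genes were represented, by 27 of the 8740 probe sets that are not controls, where 4736 genes have a single-symbol probe set. For each age there were 3 arrays of the Affymetrix Rat Genome U34 type, and each carried RNA from tissue of 4 animals combined, so replicate error is the spread between pools. The sources used here do not name strain, sex or any treatment, and 6 months served as the baseline. Signals are Microarray Suite 5.0 (MAS 5.0) values on a linear scale, with a 2% trimmed mean of 500.9 to 501.0 on each array.

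The ligands and receptors belong to a few families. The neurotrophins brain-derived neurotrophic factor (*Bdnf*) and neurotrophin-3 (*Ntf3*) bind the receptor tyrosine kinases TrkB (*Ntrk2*) and TrkC (*Ntrk3*), while p75 (*Ngfr*) binds every neurotrophin. Glial cell line-derived neurotrophic factor (*Gdnf*), which skeletal muscle makes and motor neurons take up, binds GFRα1 (*Gfra1*) and signals through the kinase RET. Ciliary neurotrophic factor (*Cntf*) is a cytokine of Schwann cells, neuregulin-1 (*Nrg1*) activates ErbB receptors on Schwann cells and muscle, and neuritin (*Nrn1*) is a membrane-anchored protein that neurons induce with activity and that promotes neurite growth.

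No member probe set passed an adjusted p of 0.05 in limma, a linear model fitted to each probe set, in any of the 3 comparisons of ages or in the F-test for any difference among ages. The member nearest to the threshold, at 30 against 6 months, was *Nrn1*, which was lower on every 30-month array (log2 change -1.10 ± 0.21 SE, adjusted p = 0.145). *Gdnf*, 1 of the 2 *Ntrk3* and 1 of the 2 *Gfra1* probe sets lay higher on every 30-month array than on any 6-month array. Besides *Nrn1*, those lower on every 30-month array were *Cntf*, the *Ntf3* probe set of stronger signal, 2 of the 7 *Bdnf*, 2 of the 7 *Nrg1* and 1 of the 2 *Ntrk2* probe sets. In all, 3 of the 27 were higher and 8 lower without overlap, where 5.51% of all probe sets were higher and 15.5% lower. *Ngfr*, the member with the strongest signal, overlapped between ages in both of its probe sets. Few probe sets passed in the whole table: 0.149% at 30 against 6 months, 0.0686% at 18 against 6 months, 0.0458% at 30 against 18 months and 0.0686% in the F-test.

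Most members gave weak signals. A probe set was called near background where its mean log2(signal + 32) over the 9 arrays fell in the lower 40% of all probe sets, a cutoff that corresponds to a signal of 65.0. By that measure 17 of the 27 member probe sets were near background, among them all 7 of *Nrg1*, both of *Ntrk2* and 5 of the 7 of *Bdnf*, and 10 in 8 genes lay above the cutoff. Just above it were *Ntrk3* S60953_s_at (percentile 40.7 of all probe sets), *Gdnf* (41.5) and *Cntf* (42.6). Just below it were *Gfra1* rc_AI070721_s_at (36.7) and *Bdnf* S71201mRNA_at (36.6). *Ntrk3*, *Gdnf* and *Cntf* passed the cutoff only through the ages at which their signals were high. As a further gauge, 16 probe sets of genes that belong to other tissues, such as pituitary and pancreatic hormones, had mean signals of 14.8 to 592, with a median of 56.4, and 7 of them lay above the same cutoff. Their highest mean, that of the insulin gene *Ins2*, was exceeded by 1 member probe set, *Ngfr* U25650_f_at. The value table holds no detection calls, so for the other 26 a signal alone does not separate transcript from nonspecific hybridization. That the tissue is skeletal muscle was borne out by its markers, of which 15 of 15 measured lay above the cutoff, with creatine kinase (*Ckm*) the strongest probe set of all. These markers are of skeletal muscle in general and do not identify the posterior cricoarytenoid.

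*Nrn1*, measured by probe set U88958_at, stood furthest from its 6-month level. The 6-month arrays read 234, 168 and 148, the 18-month arrays 107, 167 and 152, and the 30-month arrays 81.4, 47.0 and 77.5. The 30-month arrays all lay below every array of the other ages, while the arrays of 6 and 18 months overlapped. Means were 183 ± 44.7 at 6 months, 142 ± 31.1 at 18 months and 68.6 ± 18.8 at 30 months (SD, n = 3 pools per age), so the 30-month mean was 0.374 times the 6-month mean. The log2 change was -1.10 ± 0.21 (SE) at 30 against 6 months, -0.79 ± 0.21 (adjusted p = 0.904) at 30 against 18 months and -0.30 ± 0.21 (adjusted p = 0.739) at 18 against 6 months. Over the alternatives of the analysis the change at 30 against 6 months ran from -1.33 to -0.74 and its adjusted p from 0.0854 to 0.372. In RNA from whole muscle, fewer cells that make a transcript cannot be told apart from less of it per cell.

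Markers of axons and neurons were read beside *Nrn1*. At 30 against 6 months 8 of 12 measured genes of that list had a negative change, where 63.6% of all probe sets did, and 5 were lower on every 30-month array than on any 6-month array, where 15.5% of all probe sets were, with a median log2 change of -0.39, against -0.07 over all probe sets; 0 passed the threshold. The summed signal of the list was 1245 to 1545 at 6 months, 1047 to 1544 at 18 months and 1008 to 1246 at 30 months. Named after their values were seen, peripherin (*Prph*, an intermediate filament of peripheral neurons) had a log2 change of -0.56 and the synaptic protein gene *Snap25* one of -0.47. Also lower on every 30-month array were *Tac1* (-0.65) and the neurofilament gene *Nefl* (-0.53), both above the cutoff. On the other side lay 4 genes. The neurofilament genes *Nefm* (0.31) and *Nefh* (0.53) and choline acetyltransferase (*Chat*, 0.15) were near background. *Uchl1* (0.06), the marker of strongest signal in the list, lay above the cutoff. Whether the axon content of the samples has a part in the *Nrn1* values was not tested.

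**Figure D1:**
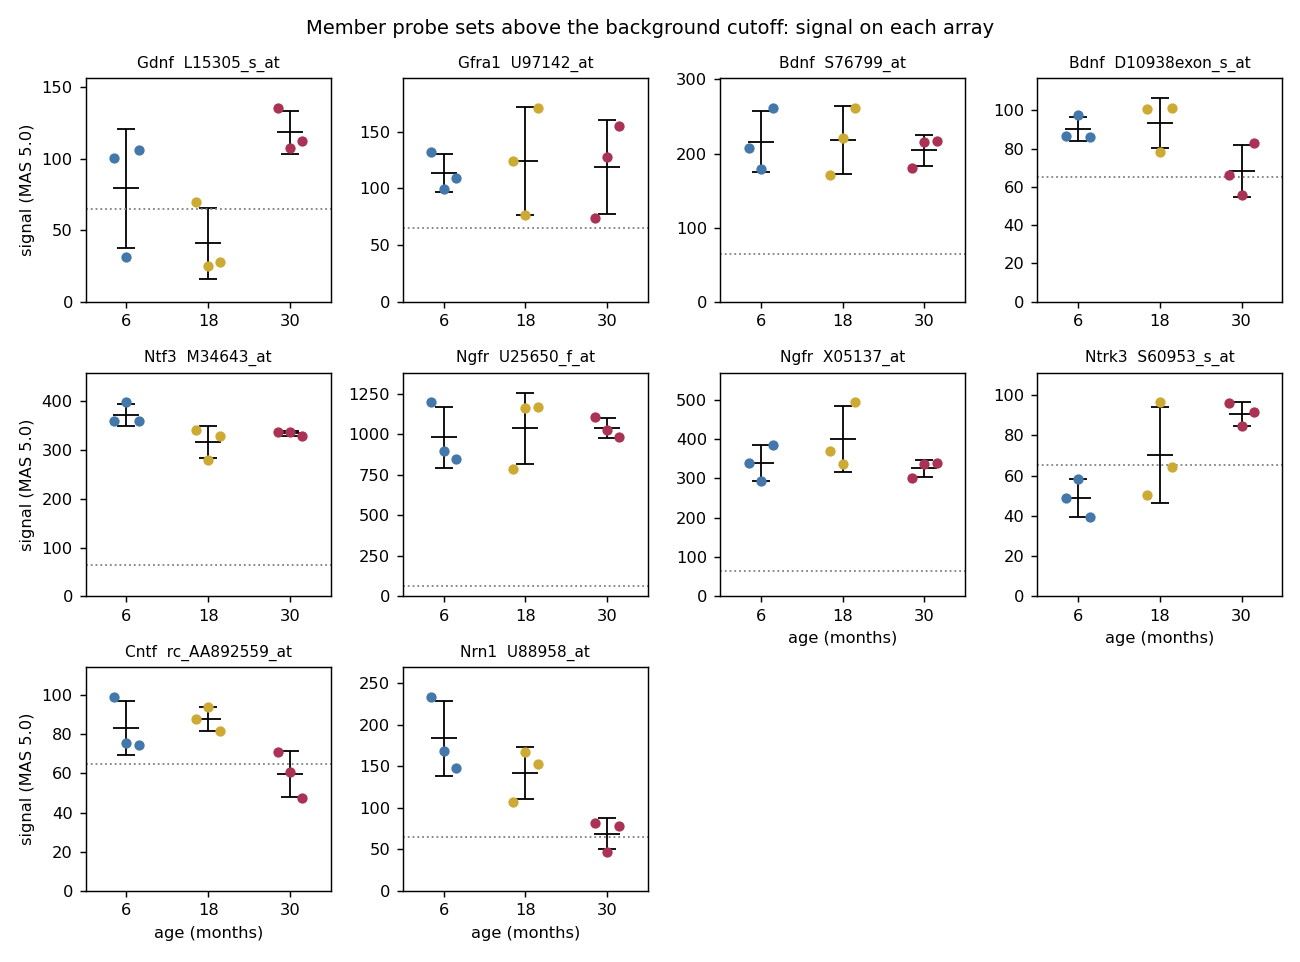
Signals of the 10 member probe sets above the background cutoff, 1 panel each, with age in months on the x axis and MAS 5.0 signal (linear, from 0) on the y axis. Points are arrays, black bars the mean ± SD of 3 arrays and the dotted line the cutoff of 65.0; *Nrn1* and *Cntf* show 30-month arrays below all others, *Ntrk3* and *Gdnf* show them above all 6-month arrays, and the ages overlap in *Ngfr* and in *Bdnf* S76799_at.

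Among the ligands, *Gdnf* (L15305_s_at) gave its highest signals at 30 months. It gave signals of 101, 31.2 and 106 (6 months), 69.5, 24.7 and 28.0 (18 months) and 136, 107 and 112 (30 months). All 30-month arrays were above all others, by a narrow gap to 6 months, and above the background cutoff. At 6 months replicate 2 lay far below the other arrays of that age and within the 18-month range. Arrays of 6 and of 18 months lay on both sides of the cutoff. The place of *Gdnf* just above it thus rests on the 30-month arrays. The log2 change was 1.10 ± 0.33 (SE) at 30 against 18 months (adjusted p = 1.00), 0.51 ± 0.33 at 30 against 6 months (adjusted p = 0.550) and -0.58 ± 0.33 at 18 against 6 months (adjusted p = 0.687). Without replicate 3 of 6 months the change at 30 against 6 months was 0.71, and without replicate 2 of that age it was 0.15.

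The receptor of *Gdnf* was read by a pair of probe sets that differ. *Gfra1* rc_AI070721_s_at, which lies near background, read 26.8, 27.7 and 60.1 on the 6-month arrays, 79.7, 45.9 and 76.8 on the 18-month arrays and 65.8, 63.4 and 68.5 on the 30-month arrays. Here every 30-month array exceeded every 6-month array, by a narrow gap, while 18 and 6 months overlapped. The log2 changes were 0.51 ± 0.20 (SE, adjusted p = 0.395) at 30 against 6 months and 0.52 ± 0.20 (adjusted p = 0.618) at 18 against 6 months. *Gfra1* U97142_at, above the cutoff, averaged 114 ± 16.9, 124 ± 47.5 and 119 ± 41.6 at 6, 18 and 30 months (SD, n = 3 per age) with overlap between all ages. Its log2 change at 30 against 6 months was 0.02 ± 0.27. The array therefore gives no single value for *Gfra1*.

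*Gdnf* and *Gfra1* are a ligand and its receptor, each with 1 probe set higher on every 30-month array than at 6 months, and their promoters are printed to show how unlike their start regions are. RefSeq (GRCr8) promoter windows, from 250 bases before to 50 after the start, were at hand for 5 of the 10 genes, as 12 windows; *Ngfr*, *Ntrk2*, *Ntrk3*, *Nrg1* and *Nrn1* had none in the table. Capitals mark TATAAA, the core of the TATA box, and GGGCGG, a GC box, each searched on both strands, so that CCGCCC is a GC box on the other strand. The palindrome TGACGTCA, the cAMP response element, was also searched and was in none of the 12. The windows of *Gdnf* (chr2:58621077-58621376, plus strand) and *Gfra1* (chr1:267555762-267556061, minus strand) are given 5′ to 3′ in the direction of transcription.
Gdnf: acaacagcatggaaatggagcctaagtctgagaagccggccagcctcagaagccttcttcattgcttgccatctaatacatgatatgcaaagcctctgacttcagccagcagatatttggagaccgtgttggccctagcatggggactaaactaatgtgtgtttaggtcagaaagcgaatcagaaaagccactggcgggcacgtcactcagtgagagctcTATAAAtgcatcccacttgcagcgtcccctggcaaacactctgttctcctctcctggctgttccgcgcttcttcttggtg
Gfra1: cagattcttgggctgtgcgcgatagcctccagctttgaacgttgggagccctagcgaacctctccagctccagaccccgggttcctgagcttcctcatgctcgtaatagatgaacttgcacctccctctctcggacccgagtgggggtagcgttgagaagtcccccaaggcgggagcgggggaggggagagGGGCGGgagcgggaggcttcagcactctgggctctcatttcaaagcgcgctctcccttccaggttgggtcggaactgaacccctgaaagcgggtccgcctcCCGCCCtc
The *Gdnf* window has 1 TATA box, which begins 30 bases before the start, no GC box, 8 CpG dinucleotides and a GC content of 50.7%. In the *Gfra1* window there is no TATA box. It holds a GC box that begins 59 bases before the start and another, on the opposite strand, that begins 43 bases after it, with 19 CpG dinucleotides and a GC content of 63.0%. Of all 33469 windows, 14.2% hold the TATA box letters, 33.1% those of the GC box and 1.83% the cAMP response element, with medians of 7 CpG dinucleotides and a GC content of 51.7%. A match to these letters describes the window and is no measure of binding.

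*Cntf* (rc_AA892559_at) gave signals of 99.3, 75.6 and 74.7 (6 months), 88.1, 93.9 and 81.5 (18 months) and 70.9, 60.9 and 47.2 (30 months). The 30-month arrays lay below every array of both other ages, by a narrow gap to 6 months. The log2 change was -0.33 ± 0.13 (SE, adjusted p = 0.395) at 30 against 6 months, -0.39 ± 0.13 (adjusted p = 1.00) at 30 against 18 months and 0.06 ± 0.13 at 18 against 6 months. Markers of Schwann cells, the known source of this cytokine, had a median log2 change of 0.02 at 30 against 6 months, with 6 of 11 higher and 5 lower. Their summed signal was 4050 to 4641 at 6 months, 3704 to 4060 at 18 months and 3497 to 4049 at 30 months. Its largest part came from *Pmp22*, which averaged 2369 at 6 months and 1912 at 30 months. The myelin genes *Pmp22* (-0.30), *Prx* (-0.51) and *Mbp* (-0.21), named after their values were seen, were lower on every 30-month array than on any 6-month array, and 0 of the list passed the threshold. On the other side lay *S100b* (0.28), *L1cam* (0.11), the myelin gene *Cnp* (0.10) and *Gjb1* (0.05), with *Erbb3* at 0.02 and *Sox10* at 0.25. *Sox10*, the transcription factor that defines Schwann cells, was near background. Their part in the *Cntf* values was not tested.

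The *Bdnf* probe sets gave unlike courses. S76799_at, the strongest of the 7, read 208, 179 and 261 on the 6-month arrays, 171, 221 and 262 on the 18-month arrays and 180.1, 216 and 216 on the 30-month arrays, so the ages overlapped (log2 change at 30 against 6 months -0.06 ± 0.17 SE). D10938exon_s_at, the other one above the cutoff, gave signals of 86.7, 97.4 and 86.2 (6 months), 101, 78.4 and 101 (18 months) and 66.0, 55.7 and 82.8 (30 months). In that probe set the 30-month arrays lay below all 6-month arrays but overlapped 18 months, with a log2 change of -0.29 ± 0.13 (adjusted p = 0.424) against 6 months and -0.33 ± 0.13 (adjusted p = 1.00) against 18 months. The 5 near background had log2 changes of -0.58 to 0.01 at 30 against 6 months, and in S71201mRNA_at (-0.58 ± 0.29) the 30-month arrays lay below the 6-month arrays. Of the 7 probe sets 6 had a negative change, in a table where 63.6% of all probe sets did. They share 1 gene and are not separate replicates.

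*Ntf3* M34643_at read 359, 399 and 359 on the 6-month arrays, 341, 280 and 328.5 on the 18-month arrays and 338, 338 and 329 on the 30-month arrays. Every array at 18 and at 30 months lay below every 6-month array, in a narrow range. The 18-month mean was 0.850 and the 30-month mean 0.899 times the 6-month mean, with log2 changes of -0.22 ± 0.10 (SE, adjusted p = 0.645) and -0.14 ± 0.10 (adjusted p = 0.598). The other probe set, E03082cds_s_at, is near background and ranged from 8.2 to 71.6 over the 9 arrays, with a log2 change of -0.51 ± 0.26 (adjusted p = 0.472) at 30 against 6 months. Its ages overlapped.

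*Nrg1* could hardly be seen. All 7 of its probe sets, made from several sequence entries of the gene, were near background, with mean signals of 3.12 to 58.1. Of the 7, 4 had a negative and 3 a positive log2 change at 30 against 6 months. In U02315_g_at the 30-month arrays read 14.5, 20.9 and 17.2, below 43.8, 25.3 and 104 at 6 months (log2 change -0.76 ± 0.44 SE, adjusted p = 0.515), and U02315_at, made from the same sequence entry, was also lower on every 30-month array, at 4.6, 5.7 and 7.6 against 7.8, 10.3 and 9.4 at 6 months (log2 change -0.12 ± 0.11). M92430_at ran from 25.6 to 97.1 over the arrays, and the ages overlapped. *Nrg1* is thus given without a level.

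Among the receptors, *Ntrk3* (S60953_s_at) had means that stood in the order of age. It gave signals of 48.6, 58.1 and 39.4 (6 months), 50.1, 96.5 and 64.1 (18 months) and 96.1, 84.4 and 91.5 (30 months). The 30-month arrays all exceeded the 6-month arrays, and 18 months overlapped with both. All 6-month arrays lay below the background cutoff and all 30-month arrays above it, with the 18-month arrays on both sides. The place of this probe set just above the cutoff thus rests on its later arrays. Means were 48.7 ± 9.35 at 6 months, 70.2 ± 23.8 at 18 months and 90.7 ± 5.89 at 30 months (SD, n = 3 per age), with log2 changes of 0.61 ± 0.17 (SE, adjusted p = 0.312) at 30 and 0.32 ± 0.17 (adjusted p = 0.674) at 18 against 6 months. The other probe set, S62933_i_at, averaged 18.2 over all arrays, was highest on replicate 1 of 6 months at 61.7 and had a log2 change of -0.33 ± 0.33 at 30 against 6 months. The suffix i marks, by the platform's naming, a set with fewer unique probes.

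*Ntrk2* was near background in both probe sets, each with a mean of 37.1. M55293_at read 60.7, 41.1 and 67.0 on the 6-month arrays, 44.5, 44.3 and 10.2 on the 18-month arrays and 22.6, 35.8 and 7.6 on the 30-month arrays, so that the 30-month arrays lay below the 6-month arrays (log2 change -0.73 ± 0.28 SE, adjusted p = 0.388). In M55291_at the log2 change was 0.22 ± 0.33 (adjusted p = 0.811), with overlap between all ages. The probe sets of this kinase receptor thus differ in sign.

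*Ngfr* gave the strongest member signals, with changes at 30 against 6 months smaller than their SE. U25650_f_at averaged 983 ± 189 at 6 months, 1039 ± 220.1 at 18 months and 1040 ± 60.4 at 30 months (SD, n = 3 per age). X05137_at averaged 339 ± 45.0, 400 ± 83.0 and 325 ± 21.7 at the same ages. The log2 changes at 30 against 6 months were 0.09 ± 0.18 (adjusted p = 0.866) and -0.05 ± 0.15 (adjusted p = 0.921). In the platform's naming the suffix f marks probes shared by a family of sequences, so U25650_f_at may carry signal from other transcripts, and U25650_f_at is the 1 member probe set above the level of genes from other tissues.

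**Figure D2:**
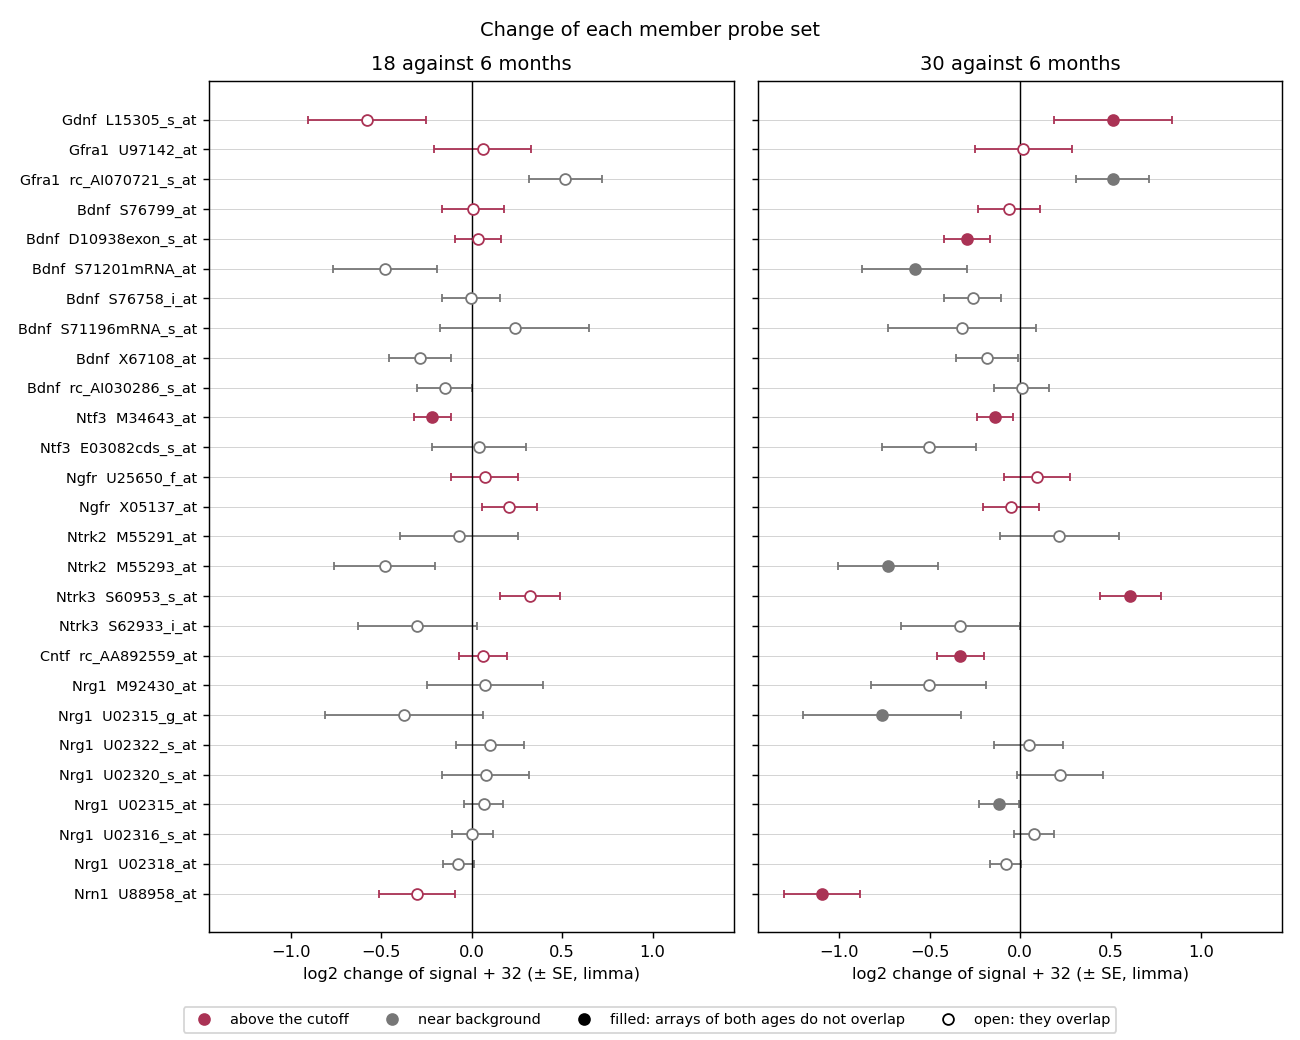
Log2 change of signal + 32 for all 27 member probe sets, with 18 against 6 months on the left and 30 against 6 months on the right; points are limma estimates, bars ± 1 SE, red points lie above the background cutoff, grey points near background, and filled points have arrays of both ages without overlap. At 18 months 1 point is filled, where 12.5% of all probe sets were without overlap. At 30 months 11 points are filled, where 21.1% of all probe sets were without overlap. Of these, 8 are on the lower side, where 15.5% of all probe sets were, and *Nrn1* lies furthest from 0.

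The members were next set beside the whole table, first at 18 against 6 months. In 1 of the 27 probe sets, the stronger of *Ntf3*, the ages did not overlap, on the lower side, against 12.5% of all probe sets in either direction and 8.23% on the lower side, and 1, *Gfra1* rc_AI070721_s_at, had an unadjusted p under 0.05, against 7.57%. The median log2 change was 0.01 over the members and -0.05 over all probe sets.

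At 30 against 6 months the ages did not overlap in 11 of the 27, or 40.7%, against 21.1% of all probe sets. Of these, 3 were higher, against 5.51% of all probe sets, and 8 lower, against 15.5%. An unadjusted p under 0.05 was reached by 5 (*Nrn1*, *Ntrk3* S60953_s_at, *Cntf*, *Gfra1* rc_AI070721_s_at and *Ntrk2* M55293_at), against 11.8% of all probe sets. The median log2 change was -0.12 over the members and -0.07 over all probe sets. Since several probe sets belong to 1 gene, these shares describe the list and do not set it apart from others. With 1 probe set per gene, the one of highest mean, 5 of the 10 genes had a positive and 5 a negative change, with a median of -0.02. Counted so, the ages did not overlap in 5 of the 10 (50%), 2 higher and 3 lower, and 3 (30%) had an unadjusted p under 0.05.

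The lower side was favoured in general, outside the strongest probe sets. When all probe sets were divided into 5 equal groups by signal, the median log2 change at 30 against 6 months was -0.07 in the weakest, -0.14 and -0.15 in the next groups, -0.07 in the group after these and 0.02 in the strongest. Of the 27 members, 17 lie in the lower 40% by signal, where 16.6% of all probe sets were lower on every 30-month array. Above the cutoff 14.8% were. Among the members 4 of the 17 near background (23.5%) and 4 of the 10 above the cutoff (40%) were lower in this way. *Cntf*, among these 4 above the cutoff, passed it narrowly, by its mean over all ages. Its 30-month arrays read 70.9, 60.9 and 47.2, on both sides of the cutoff. The share of 14.8% is therefore no fair measure for *Cntf*, which is counted in the 40%. Under a rule on signals alone, after the fold the study's design text uses, a ratio of mean signals over 1.7 without overlap, 6 members were past it at 30 against 6 months (22.2%), 4 lower and 2 higher, against 6.2% of all probe sets, 4.99% lower and 1.21% higher. Of these 6, 4 are near background, where 12.2% of all probe sets met the rule. The other 2, *Nrn1* and *Ntrk3*, lie above the cutoff, where 2.23% did. *Ntrk3* passed the cutoff narrowly, by its mean over all ages, while its 6-month arrays all lay below the cutoff. The share of 2.23% is therefore no fair measure for *Ntrk3*.

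**Figure D3:**
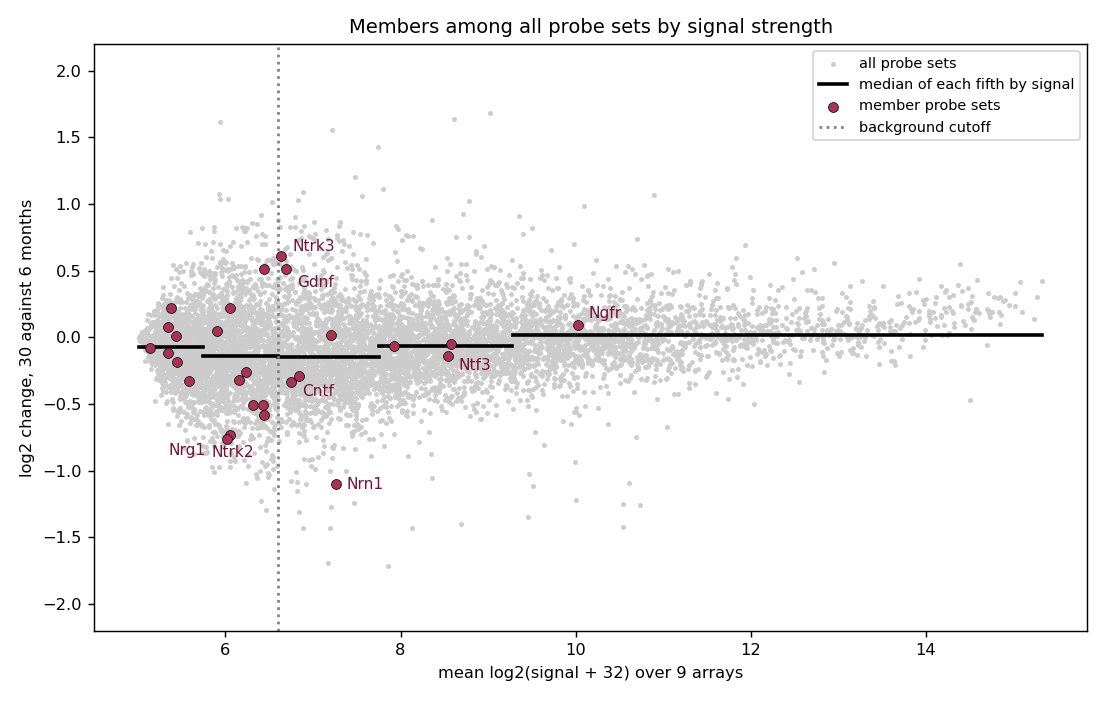
Each point is a probe set, with mean log2(signal + 32) over 9 arrays on the x axis and log2 change at 30 against 6 months on the y axis; red points are the 27 member probe sets, black lines the median of each of 5 equal groups of all probe sets by signal and the dotted line the background cutoff. Most members sit at the weak end, where the medians lie between -0.15 and -0.07, and *Nrn1* lies at -1.10.

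At 30 against 18 months 4 members had an unadjusted p under 0.05, against 4.04% of all probe sets: *Gdnf* on the higher side (1.68%) and *Nrn1*, *Cntf* and *Bdnf* D10938exon_s_at on the lower (2.36%). In *Gdnf*, *Nrn1* and *Cntf* the ages did not overlap, against 8.34% of all probe sets, 3.0% higher and 5.34% lower. The ratio rule was met by 2, *Gdnf* and *Nrn1*, against 3.02% of all probe sets, and at 18 against 6 months by 0 members, against 3.59%. This comparison shares its arrays with the others, so its values are not further evidence. By the F-test over the 3 ages, 4 members had an unadjusted p under 0.05 (*Nrn1*, *Ntrk3* S60953_s_at, *Gdnf* and *Cntf*), against 8.3% of all probe sets.

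Other genes of these pathways were read from lists, by the probe set of highest mean per gene, and 0 genes of the 7 lists passed the threshold in any comparison. Of the other GDNF and RET genes, 4 of 6 measured were lower on every 30-month array than on any 6-month array, against 15.5% of all probe sets, with a median log2 change of -0.23 at 30 against 6 months. The kinase *Ret*, the signalling receptor for GDNF, averaged 86.6 ± 12.6 in 30-month pools, against 146 ± 35.9 in 6-month pools (SD, n = 3 each; log2 change -0.57 ± 0.17 SE, adjusted p = 0.333). *Gfra2*, the receptor that prefers neurturin, averaged 255 ± 15.3 in 30-month pools, against 315 ± 41.6 in 6-month pools (-0.27 ± 0.12, adjusted p = 0.424), and for the cell adhesion gene *Ncam1* the log2 change was -0.66 ± 0.27 (adjusted p = 0.408). Thus *Ret* and *Gfra2* lay on the side opposite to *Gdnf* (0.51 ± 0.33). *Sdc3* (0.23) and *Gdf15* (0.15), both near background, lay on the side of *Gdnf*.

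The other lists were read in the same way at 30 against 6 months. Of the other neurotrophin genes 0 of 7 measured were without overlap (median 0.05), and the proprotein convertase *Furin* (0.07), *Bex3* (0.05), which encodes a partner of p75, and the plasminogen activator *Plat* (0.22) had the highest signals. Of the CNTF and LIF family 1 of 11, *Stat3* (0.51), named after its values were seen, was without overlap, on the higher side (median -0.16), with cardiotrophin-1 (*Ctf1*, -0.21), the CNTF receptor *Cntfr* (-0.14) and the shared subunit *Il6st* (-0.16) highest in signal. In the neuregulin and ErbB list 3 of 13 were lower and 1 higher without overlap (median -0.14); agrin (*Agrn*), which clusters acetylcholine receptors, had -0.24, *Egf* 0.26 and the shedding protease *Adam17* -0.21. The receptor genes *Erbb2* (0.18 ± 0.16 SE) and *Erbb3* (0.02 ± 0.17), named after their values were seen, overlapped between 6 and 30 months. *Erbb4*, a neuregulin receptor near background, was lower on every 30-month array (-0.77, adjusted p = 0.404).

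Downstream kinases and adaptors had a median of -0.0002 over 15 genes with 1 without overlap, led in signal by *Map2k2* (-0.07), *Map2k1* (-0.16) and *Akt1* (-0.12). Activity and neurotrophin response genes had a median of -0.17 over 13, with 2 lower without overlap, led by *Nr4a1* (0.18), *Egr1* (-0.03) and *Homer1* (0.05). Other growth factors with action on nerve had a median of -0.17 over 18, with 1 higher and 1 lower without overlap, led by *Igf2* (0.37), *Vegfa* (0.21) and *Vegfb* (0.02). At 18 against 6 months the medians of the 7 lists ran from -0.15 to 0.04. Genes of denervated or immature fibres had a median of -0.02 at 30 against 6 months, with 2 of 14 higher and 4 lower without overlap. Their summed signal, 29012 to 32586 at 30 months and 23990 to 27272 at 6 months, is carried mostly by *H19*.

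Fibroblast markers lay lower beside the members that did. Their median log2 change at 30 against 6 months was -0.65, 8 of 10 were lower without overlap, and 1, the collagen gene *Col1a2*, fell past the threshold (adjusted p = 0.0176), as it did at 18 against 6 months (adjusted p = 0.0328). That call held in 9 of 16 alternatives at 30 months and in 6 of 16 at 18 months. Their summed signal was 18976 to 24135 at 6 months, 14117 to 15564 at 18 months and 15714 to 16342 at 30 months. Its largest part came from *Dcn*, which averaged 9919 at 6 months, 7919 at 18 months and 9266 at 30 months. Muscle fibre markers had a median of 0.25, with 8 of 15 higher without overlap. Immune, vascular and adipocyte markers had medians of 0.04, -0.12 and -0.05. The part of these shifts in the member values was not tested.

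**Figure D4:**
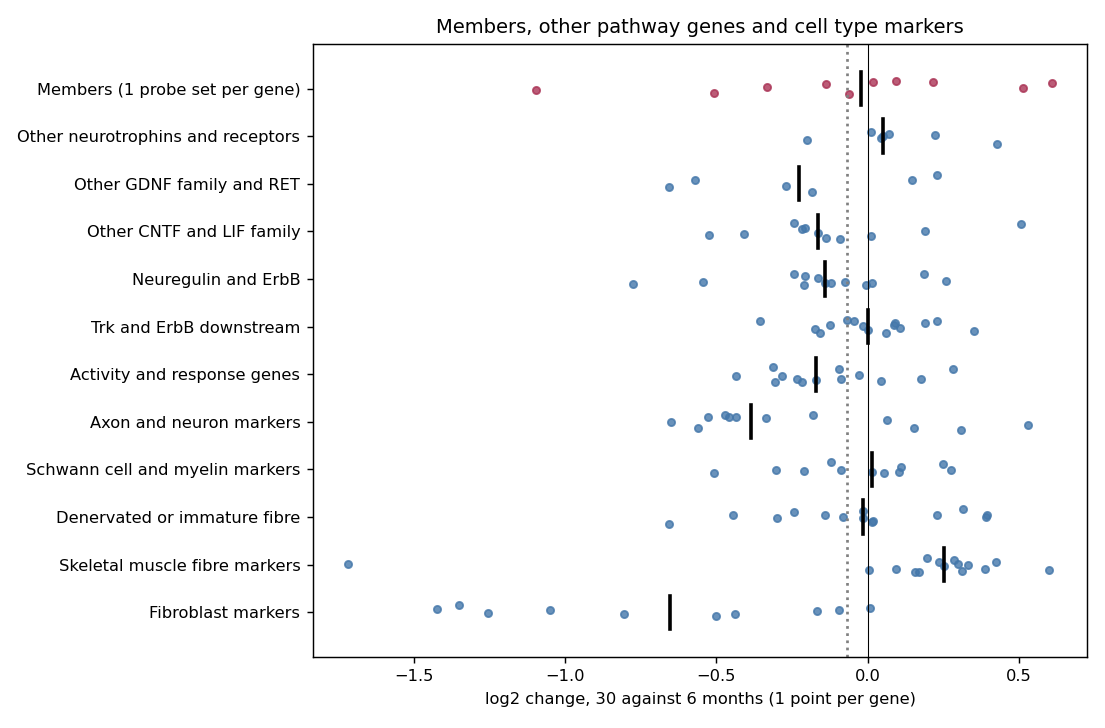
Log2 change at 30 against 6 months on the x axis for the 10 member genes (red, probe set of highest mean) and for genes of the pathway and cell type lists (blue), 1 list per row; black bars are medians and the dotted line is the median of all probe sets, -0.07. The members spread from -1.10 (*Nrn1*) to 0.61 (*Ntrk3*) around a median of -0.02, while the medians of the axon and fibroblast markers are -0.39 and -0.65.

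The genes whose course over the 9 arrays was most like that of *Nrn1*, by Pearson's r of log2 signals among named probe sets above the cutoff, were *Smg6* (r = 0.933), *Pacs1* (r = 0.900) and *Casp1* (r = 0.889). *Pacs1* averaged 312, 284 and 154 at 6, 18 and 30 months and passed the threshold at 30 against 6 months in probe set AF076184_at (log2 change -0.89, adjusted p = 0.0460), a call that held in 2 of 16 alternatives, with adjusted p from 0.0252 to 0.182. The other *Pacs1* probe sets, both stronger and named after their values were seen, had log2 changes of -0.0075 (AF076183_g_at, adjusted p = 0.988) and -0.14 (AF076183_at, adjusted p = 0.676), so the probe sets of that gene disagree. For *Ngfr* U25650_f_at they were *Safb* (r = 0.930), *Hsp90ab1* (r = 0.921) and *Nexn* (r = 0.883). These are the highest of the coefficients of all such probe sets, from 9 arrays that share their ages and scaling, and they are given as a description.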

How the data were processed

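Per the series' design text, the authors combined tissue of 4 animals in each RNA sample, hybridized biotinylated cRNA to 9 Affymetrix Rat Genome U34 arrays and computed signals with MAS5. The deposited values are signal intensity on a linear scale, 0.1 to 48487.6 with 0 missing; detection calls were not used here. The labels list Cy3 and Cy5, but the streptavidin staining described has 1 channel, and the arrays were treated so. Ages came from the sample titles. The 59 control probe sets were left out, and log2(signal + 32) of all 8740 others was modelled in R 4.3.3 by limma 3.58.1 (moderated statistics; 1 mean per age, 6 residual and 2.48 prior degrees of freedom). Two-sided p-values had Benjamini-Hochberg adjustment across the 8740 probe sets, which gives weak members a test too; ± after a log2 change is the SE. With 3 arrays an age, the smallest p of an exact permutation test is 0.1, so none was used. The design text calls the replicates independent, and p-values measure only the spread between pools.

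Symbols came from the platform annotation: 7006 probe sets carry 1, 308 several and 1426 none, and 6985 gene IDs matched a GRCr8 table, with 0 symbols changed. Every member probe set is named; from each pathway list the 3 genes of highest signal and any past the threshold are named, and other genes were named after their values were seen. The members and lists were chosen with earlier results of these data known. The fit was tested on simulated data. The number of arrays limits the precision. Alternatives were other pseudocounts (8 and 100), the upper 60% of probe sets, quantile normalization, a mean-variance trend, a replicate block, only the ages compared, a fold rule and leaving out each array.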

Additional observations from a re-analysis of the deposited data

How the results depend on the processing

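With 6 probe sets past the threshold at 18 against 6 months, 13 at 30 against 6, 4 at 30 against 18 and 6 in the F-test, these counts moved with the setting. At 18 against 6 months 0 were called with the replicate block, 0 with only the 2 ages compared, 314 under the fold rule and 0 to 7 with an array left out. At 30 against 6 months the counts were 7 with pseudocount 8, 2 with the replicate block, 0 with only the ages compared, 542 under the fold rule and 0 to 8 with an array left out, with 0 whichever array of 6 or 30 months was omitted. At 30 against 18 months they were 7 with pseudocount 8, 0 with pseudocount 100, 1 in the upper 60%, 0 with the mean-variance trend, 0 with the block, 0 with only the ages compared, 264 under the fold rule and 0 to 3 with an array left out. In the F-test they were 13 with pseudocount 8, 14 in the upper 60%, 13 after quantile normalization, 0 with the block and 0 to 8 with an array left out. The cause was not tested. Member probe sets past the threshold numbered 0 under all of these limma settings, and under the fold rule 6 at 30 against 6 months, 2 at 30 against 18 and 0 at 18 against 6. Against the highest mean of genes from other tissues, 26 members rather than 17 counted as near background.

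Of 33 member changes recomputed, 25 kept their sign under every alternative and 0 passed the adjusted threshold under limma. The 33 are all 27 at 30 against 6 months, where the 8 reversals lie, and selected changes of the other comparisons. Those were selected for arrays without overlap or an unadjusted p under 0.05. A change without overlap cannot turn when an array is left out, so part of this stability was fixed beforehand. At 30 against 6 months *Bdnf* S76799_at turned to 0.038 after quantile normalization (main value -0.06). With an array left out, 8 changes near 0 or of weak probe sets took both signs: *Gfra1* U97142_at -0.160 to 0.255, *Bdnf* S76799_at -0.171 to 0.065, *Bdnf* S71196mRNA_s_at -0.678 to 0.013, *Bdnf* rc_AI030286_s_at -0.073 to 0.082, *Ngfr* X05137_at -0.140 to 0.036, *Ntrk3* S62933_i_at -0.583 to 0.047, *Nrg1* U02322_s_at -0.107 to 0.131 and *Nrg1* U02316_s_at -0.0053 to 0.137. *Pacs1* AF076183_g_at took 0.015 after quantile normalization and -0.064 to 0.071 with an array left out. *Nrn1* ran from -1.22 to -0.93. Whether replicate numbers pair the arrays was not settled: deviations of same-numbered arrays correlated at 0.00 to 0.18 over the 3 comparisons. At 30 against 18 months these were 0.05 to 0.18, above all arrays of different number (-0.15 to 0.00). Arrays of different number reached 0.11 at 18 against 6 months and 0.08 at 30 against 6 months. Signal over background limits what 17 of the 27 probe sets can show.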
